A study of Mus musculus with 6 samples.

Results

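A set of 10 genes of the oxygen-sensing pathway were followed in bone marrow-derived macrophages (BMMs) cultured with or without cartilage fragments. They were chosen by symbol: Hif1a and Arnt, which encode the subunits of hypoxia-inducible factor 1, the oxygen sensors Egln1, Egln2, Egln3 and Hif1an, the ubiquitin ligase subunit Vhl, and the hypoxia targets Bnip3, Ddit4 and P4ha1. All 10 were found among the 24394 gene symbols of the files. The cells came from the bone marrow of C57BL/6 mice at postnatal day 28 and were differentiated for 7 days with 50 ng/ml macrophage colony-stimulating factor (Mcsf). Libraries were made from 3 control cultures and from 3 cultures given 5 cartilage fragments per macrophage for 24 h, the fragments being crushed femoral head cartilage of the same strain. Both groups carried the same Mcsf differentiation, and no gene was modified. Neither the labels nor the methods say whether the 3 libraries of a group came from separate animals, so each test measures the spread between these libraries, which may be technical.

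HIF-1α is made continuously and, in the presence of oxygen, is hydroxylated on prolines by the Egln enzymes (also called PHDs). The hydroxylated protein is bound by the VHL protein, marked with ubiquitin and degraded. Hif1an encodes FIH, which hydroxylates an asparagine and so limits the contact of HIF-1α with its coactivators. When hydroxylation is low, HIF-1α pairs with ARNT, binds hypoxia response elements and raises target genes, among them Egln3, Bnip3, Ddit4 and P4ha1. In macrophages, inflammatory signals can also raise Hif1a at the level of its messenger. Much of this control acts on the protein, which RNA-seq does not measure.

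The core of the hypoxia response element is ACGTG or GCGTG. The stretch of 250 bases before the start site was read for the members from RefSeq on GRCm38.p6, and 4 windows are shown for the factor and its targets, with every ACGTG or GCGTG, on either strand, in capitals. In CACGTG the motif is read on both strands.
Hif1a promoter, chr12:73907617-73907866, plus strand: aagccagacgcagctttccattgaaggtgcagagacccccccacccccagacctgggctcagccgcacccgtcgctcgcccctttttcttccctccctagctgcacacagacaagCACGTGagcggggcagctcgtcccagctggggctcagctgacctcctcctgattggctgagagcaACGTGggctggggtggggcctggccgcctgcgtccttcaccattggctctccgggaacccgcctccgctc
Bnip3 promoter, chr7:138909507-138909756, minus strand: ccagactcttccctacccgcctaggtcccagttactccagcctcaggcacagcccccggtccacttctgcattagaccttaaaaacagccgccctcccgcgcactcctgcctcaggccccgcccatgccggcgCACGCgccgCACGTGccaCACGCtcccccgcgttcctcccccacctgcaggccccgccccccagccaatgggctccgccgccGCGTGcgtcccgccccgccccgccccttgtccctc
Ddit4 promoter, chr10:59951771-59952020, minus strand: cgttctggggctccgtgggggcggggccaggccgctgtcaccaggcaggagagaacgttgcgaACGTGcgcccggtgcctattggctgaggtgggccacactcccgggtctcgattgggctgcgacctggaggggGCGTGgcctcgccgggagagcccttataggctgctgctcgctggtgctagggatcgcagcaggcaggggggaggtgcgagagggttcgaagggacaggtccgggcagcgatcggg
P4ha1 promoter, chr10:59323046-59323295, plus strand: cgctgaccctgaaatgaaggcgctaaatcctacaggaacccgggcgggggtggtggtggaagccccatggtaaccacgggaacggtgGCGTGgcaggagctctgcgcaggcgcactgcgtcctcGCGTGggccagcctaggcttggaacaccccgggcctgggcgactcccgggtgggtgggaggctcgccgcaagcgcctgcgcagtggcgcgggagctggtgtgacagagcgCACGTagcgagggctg
The start site beside each of these windows was the transcript start in the deposited files. ACGTG was present on at least 1 strand in the windows of 7 of the 10 members (Hif1a, Egln1, Egln2, Egln3, Bnip3, Ddit4 and P4ha1) and in 16.6% of all 32851 windows of this length. GCGTG was present in the windows of Arnt, Egln1, Egln2, Bnip3, Ddit4 and P4ha1 and in 28.2% of all windows. The share among windows of like GC content was not computed. The GC content was 66.4% in the Hif1a window, 72.4% in that of Bnip3, 70% in that of Ddit4 and 69.6% in that of P4ha1, against a median of 52.4%. A match describes the letters only, and no binding was measured.

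The deposited values are fragments per kilobase of transcript and per unit of sequencing depth (FPKM), a level scaled to transcript length and library depth. The coverage listed beside them, with 100-base reads, gave between 699237 and 776371 fragments per library. This is far below the number of reads per sample that the methods state, and the difference could not be resolved from the files. All fragment numbers, their intervals and the scaled fragments rest on the depth estimated from coverage, at which the precision of weakly expressed genes is low. The intervals on fragments cover counting error only. FPKM was summed over the transcripts of a gene, and log2(FPKM + 0.1) was compared with limma in the 10399 genes that averaged 1 FPKM or more, with Benjamini-Hochberg adjustment over all of them. Fold changes are differences of group means on this scale. In low genes the added 0.1 shrinks them, whereas a library at 0 can make them larger than the ratio of mean FPKM. An exact two-sided permutation test of 3 libraries against 3 cannot give a p under 0.1, so the overlap of the groups is given instead. As an alternative the same test was run on scaled fragments, the estimated fragments of a gene brought to equal depth.

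The macrophage markers Adgre1, Csf1r, Cd68 and Lyz2 were present in every library, whereas all lymphocyte and erythroid markers were at 0. Of 16 chondrocyte markers 10 were at 0 in all libraries, and the sum of the list was 2.40 to 5.21 FPKM in controls and 1.44 to 3.35 FPKM in stimulated cultures. The sum of 9 fibroblast markers was 202 to 218 FPKM in controls and 126 to 147 FPKM in stimulated macrophages. It was lower in all 3 stimulated libraries, with 4 of the 9 under 1 FPKM on average. Of the 5 fibroblast markers tested, 3 passed in scaled fragments and 1 in FPKM (limma). The latter was Postn, which fell from a mean of 47.5 to 23.9 FPKM (log2 fold change -0.999, limma, adjusted p = 0.0492). Col1a1, Col1a2 and Postn held most of the sum, so it says little of the other markers. Dcn was higher without passing (log2 fold change 0.28 on 10 and 12 fragments). Neutrophil markers summed to 998 to 1081 and 871 to 1257 FPKM, and dendritic cell markers to 72.2 to 90.8 and 67.2 to 78.2 FPKM. Of 9 macrophage markers tested 2 passed upward in FPKM, beside 0.317% of all genes. Adgre1 rose from a mean of 365 to 549 FPKM (log2 fold change 0.59, limma, adjusted p = 0.00831). Cd14 rose from 118 to 183 FPKM (log2 fold change 0.63, limma, adjusted p = 0.0352). Both changes were close in size to that of Hif1a given below. The other macrophage markers did not pass in FPKM. Their log2 fold changes were 0.56 for Fcgr1, 0.26 for Itgam, 0.13 for Mertk and 0.11 for Cd68. Those of Csf1r, Lyz2 and Mrc1 were 0.01, -0.11 and -0.12, so a rise was not common to the list. The summed macrophage list was 39569 to 60644 FPKM in controls and 40915 to 54795 FPKM after stimulation, so it overlapped. Lyz2 alone held 36738 to 57950 FPKM in controls and 37666 to 51721 FPKM after stimulation. The overlap of the sum is therefore mostly that of Lyz2 and says little of the other markers. The part of the macrophage and fibroblast lists in the results below was not tested. In such bulk samples fewer cells of a type and less RNA per cell cannot be told apart.

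Hif1a was higher in all 3 stimulated libraries than in any control, and the other tested members overlapped between the groups in FPKM. In FPKM, 0 of the 9 tested members passed an adjusted p of 0.05 (limma), 1 (Hif1a) had an unadjusted p under 0.05, and 1 (Hif1a) had groups without overlap. Over all tested genes the corresponding shares were 0.394%, 9.31% and 15.9%. In scaled fragments, 1 of the 9 passed (Hif1a), against 2.60% of all genes, and 2 had groups without overlap (Hif1a and P4ha1), against 16.5% of all genes. Egln3 stayed under the filter and was not tested. The median log2 fold change of the tested members was 0.01 in FPKM, beside 0.003 over all tested genes.

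**Figure D1:**
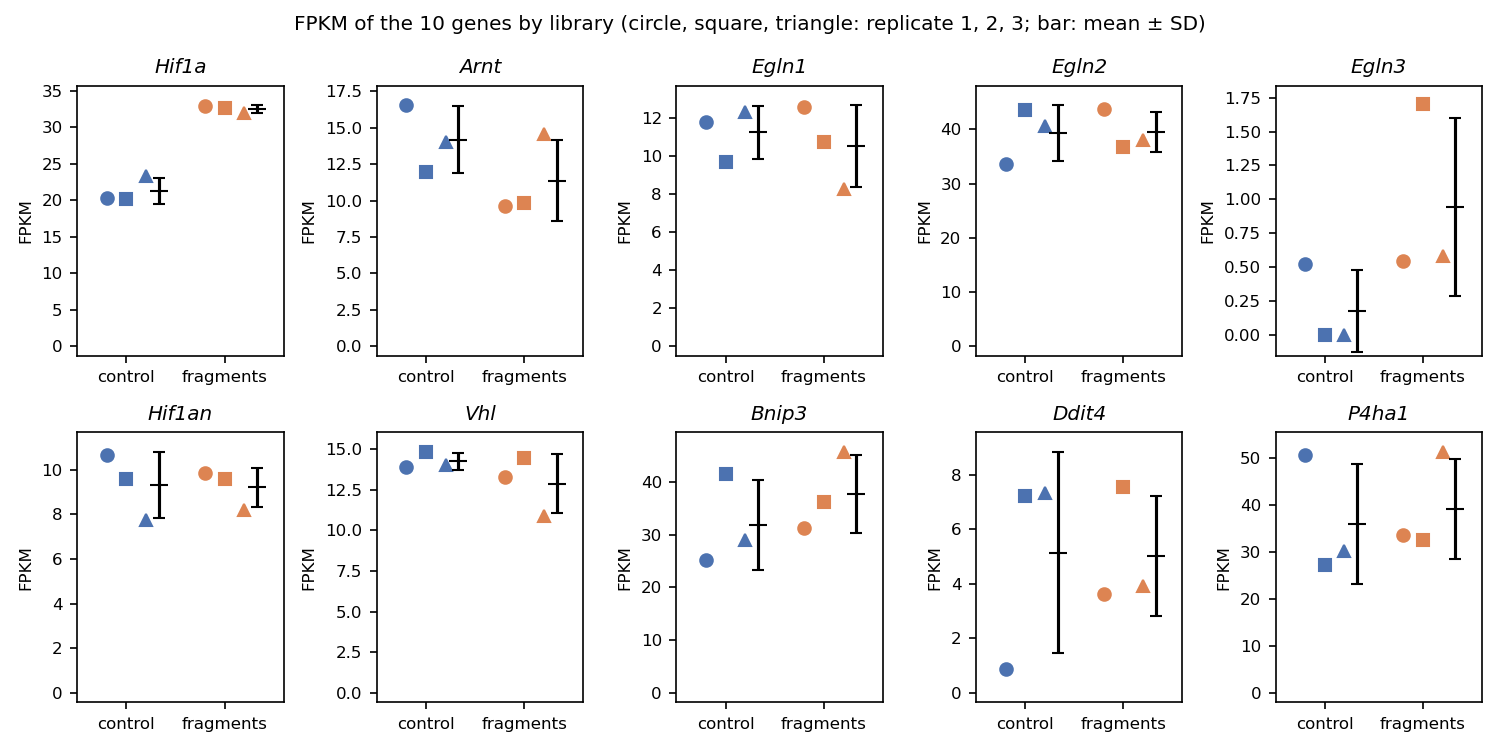
Level of each of the 10 genes in FPKM (vertical axis, its own scale in each panel) in the control and stimulated libraries, with circle, square and triangle for replicate 1, 2 and 3 and a bar for the mean ± SD. Only the Hif1a panel shows 3 stimulated libraries (31.9 to 32.9 FPKM) clear of 3 controls (20.1 to 23.4 FPKM) at a level tested.

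Hif1a (NM_010431, chromosome 12, 73907867 to 73947530 on mm10) was at 20.3, 20.1 and 23.4 FPKM in control replicates 1 to 3 and at 32.9, 32.7 and 31.9 FPKM in the stimulated ones. All stimulated libraries were higher than all controls, and the stimulated ones lay closer together. The means were 21.2 ± 1.83 FPKM and 32.5 ± 0.524 FPKM (SD, n = 3). Their log2 fold change was 0.61, or 1.53-fold, with a standard error of 0.146 and a 95% interval of 0.28 to 0.95. This did not pass the threshold in FPKM (limma, adjusted p = 0.177).

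The estimated fragments of Hif1a were 71.6, 68.7 and 78.7 in controls and 104, 107 and 101 after stimulation. Pooled, 219 control and 312 stimulated fragments gave a ratio of 1.49 at equal depth, with a counting interval of 1.25 to 1.78 (exact, 95%). In scaled fragments the log2 fold change was 0.57 (standard error 0.131) and passed the threshold (limma, adjusted p = 0.00728). The call was lost without control replicate 2 (adjusted p = 0.0539 from limma) and without stimulated replicate 2 (adjusted p = 0.0584 from limma). Of the 20 other ways of processing the values that had been laid out, this unit was the one in which Hif1a passed, and it had been laid out with an earlier result of this kind known. Hif1a is also among the genes listed as changed by the study on these same libraries, so its direction here is not independent evidence. The same holds for Adgre1 and Cd14 above, and for Marco, C1qa, Col1a1, Col1a2, Tfrc, Cdkn1a, Pid1 and Plek below.

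The result for Hif1a depends on which transcripts are summed. Besides the reference transcript the files list transcripts assembled by Cufflinks in single libraries, which carry the same Cufflinks gene but no symbol. In control replicate 2 the reference Hif1a transcript is listed at 0 and an assembled transcript of the same span, 4719 in place of 4761 bases long, at 20.1 FPKM. In control replicate 1 the reference transcript held the whole 20.3 FPKM. The reference transcript alone was at 20.3, 0 and 14.1 FPKM in controls and at 24.4, 19.97 and 14.2 FPKM after stimulation. On these values the groups overlapped and the log2 fold change was 2.64 (limma, adjusted p = 0.797). The sum over both kinds was taken as the main value after this had been seen.

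**Figure D2:**
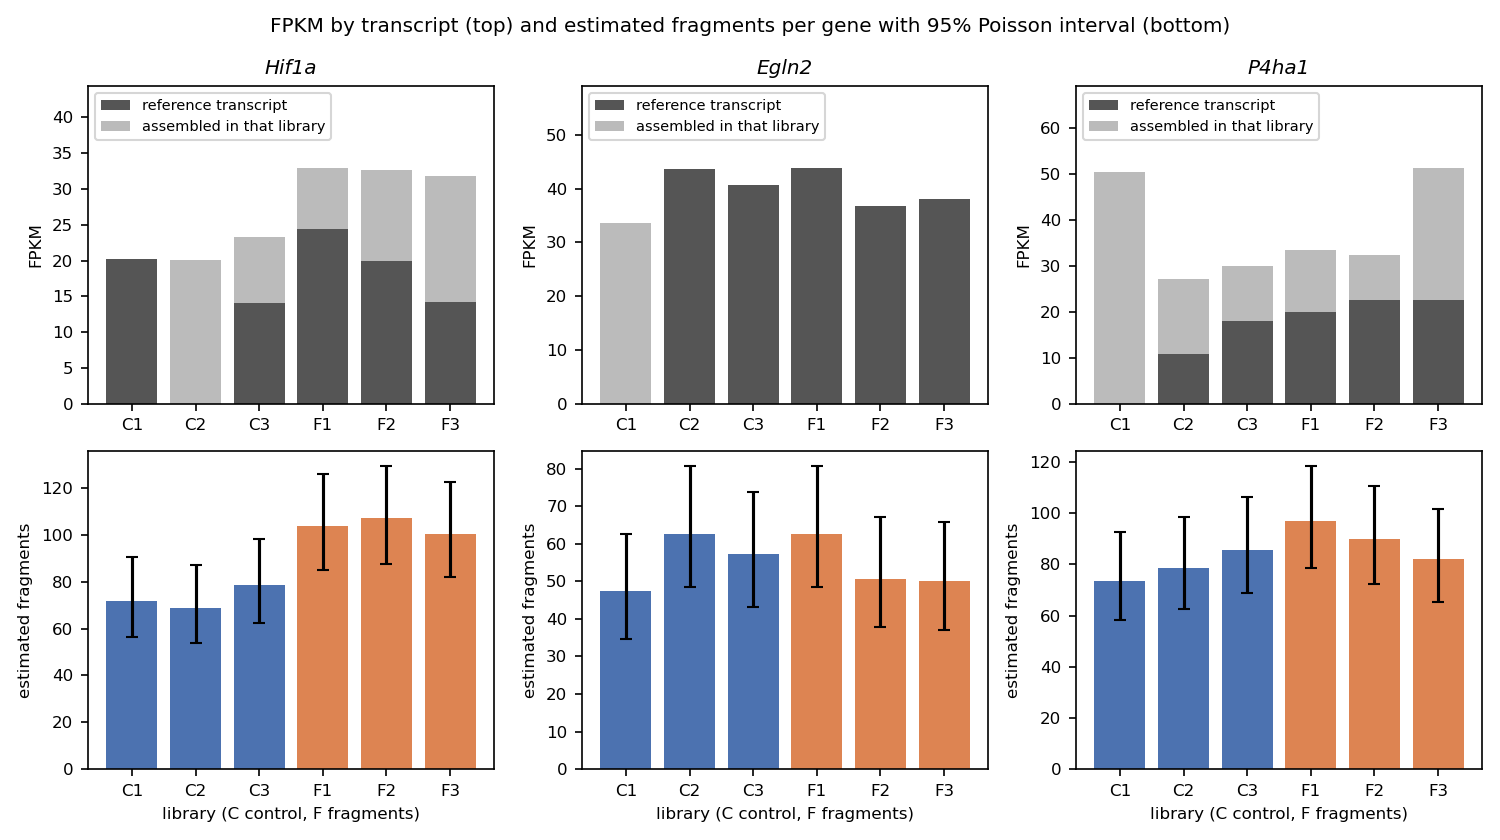
Hif1a, Egln2 and P4ha1 in the 6 libraries (C control, F cartilage fragments, replicates 1 to 3), with FPKM on the upper vertical axes split into reference and assembled transcripts and estimated fragments on the lower ones with 95% Poisson intervals. The reference transcript is at 0 for Hif1a in control replicate 2 and for Egln2 and P4ha1 in control replicate 1, while fragments of the gene are present there.

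Arnt (chromosome 3, 95434390 to 95497239), the constitutive partner of HIF-1α, was at 16.5, 12.0 and 14.0 FPKM in controls and at 9.66, 9.85 and 14.6 FPKM in stimulated macrophages. Stimulated replicates 1 and 2 lay under all controls, and replicate 3 lay among them. Arnt had a log2 fold change of -0.33 (standard error 0.235, 95% interval -0.87 to 0.21, limma, adjusted p = 0.710). With 1 library left out it ranged from -0.52, without stimulated replicate 3, to -0.22, without control replicate 1. In each library 1 of the 2 reference transcripts held all the Arnt signal and the other was listed at 0, so they could not be told apart.

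Within a library the ratio of Hif1a to Arnt in FPKM was 1.22, 1.68 and 1.66 in controls and 3.40, 3.32 and 2.19 after stimulation. The ratio was higher in all 3 stimulated libraries, with means of 1.52 ± 0.258 and 2.97 ± 0.678 (SD, n = 3). It was chosen after the values had been seen and is given without a test.

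Other HIF subunits and partners gave no call. Of the 10 listed genes 7 were tested, 0 passed in FPKM or in scaled fragments (limma), 0 had an unadjusted p under 0.05 in either, and all 7 overlapped between groups. Epas1, which encodes HIF-2α, was at 2.93 ± 0.518 FPKM in controls and 2.44 ± 0.249 FPKM after stimulation (log2 fold change -0.25). The coactivator gene Crebbp had a log2 fold change of -0.37, the clock partner Arntl of 0.46 and the chaperone gene Hsp90aa1 of 0.08. The median of the list was -0.02.

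The oxygen sensors did not pass the test. Egln1 (PHD2, chromosome 8, 124908587 to 124949254), the main HIF prolyl hydroxylase in most cells, was at 11.8, 9.66 and 12.3 FPKM in controls and at 12.5, 10.7 and 8.27 FPKM in stimulated macrophages. The groups overlapped, and the stimulated ones held both the highest and the lowest value. Its log2 fold change was -0.11 (95% interval -0.63 to 0.41, limma, adjusted p = 0.915).

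Egln2 (PHD1, chromosome 7, 27158658 to 27166802) was the most abundant sensor per length, at 33.6, 43.6 and 40.7 FPKM in controls and 43.8, 36.8 and 38.0 FPKM after stimulation. The means of 39.3 ± 5.13 and 39.5 ± 3.72 FPKM (SD, n = 3) differed by less than either spread. The log2 fold change was 0.01 (95% interval -0.34 to 0.37, limma, adjusted p = 0.993), and it was -0.024 with libraries scaled to equal totals. In control replicate 1 the reference transcript is listed at 0 and an assembled one holds the 33.6 FPKM, so the reference transcript alone gave a log2 fold change of 2.81 (limma, adjusted p = 0.797).

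Egln3 (PHD3, chromosome 12, 54178981 to 54203874), a sensor gene that is itself a HIF target, was barely present. It was at 0.526, 0 and 0 FPKM in controls and at 0.543, 1.70 and 0.585 FPKM after stimulation. These values rest on 1, 0 and 0 fragments in controls and on 1, 3 and 1 in the stimulated libraries. A count of 0 allows up to 3 fragments as a one-sided limit, or 1.61 FPKM in control replicate 2 and 1.64 FPKM in replicate 3, so a difference was not detectable at the estimated depth. Pooled, 1 and 5 fragments gave a ratio of 5.23 with a counting interval of 0.585 to 247.

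Hif1an (FIH, chromosome 19, 44562854 to 44576274) was at 10.6, 9.59 and 7.72 FPKM in controls and at 9.85, 9.58 and 8.21 FPKM after stimulation. The stimulated values all lay within the range of the controls. The log2 fold change was -0.01 (95% interval -0.50 to 0.48, limma, adjusted p = 0.997).

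Vhl (chromosome 6, 113624021 to 113631633) was at 13.9, 14.8 and 14.0 FPKM in controls and at 13.3, 14.4 and 10.9 FPKM in stimulated macrophages. Stimulated replicate 3 was the lowest, and replicate 2 lay among the controls. For Vhl the log2 fold change was -0.15 (95% interval -0.58 to 0.27, limma, adjusted p = 0.832). It was -0.040 without stimulated replicate 3 and down to -0.24 without another library. Pooled fragments gave a ratio of 0.906, with a counting interval of 0.650 to 1.26.

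Of 13 symbols of the VHL ligase and of HIF turnover 10 were in the files and tested. None passed in FPKM or in scaled fragments (limma), with 0 and 1 at an unadjusted p under 0.05, beside 9.31% and 11.8% of all genes. All 10 overlapped between groups, and the median log2 fold change was 0.03. The largest differences were in Siah1a and Siah2, ubiquitin ligases that act on the prolyl hydroxylases. Siah1a had a log2 fold change of 0.84 on 15 control and 24 stimulated fragments, and Siah2 of -0.52 on 18 and 13. Siah1a was at 0.31 without control replicate 2, and Siah2 was at -0.087 without stimulated replicate 3. Usp33, a deubiquitinase, had a log2 fold change of 0.36, and Wsb1, a ubiquitin ligase subunit, of -0.16.

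Of 13 other 2-oxoglutarate enzymes, namely histone demethylases, collagen hydroxylases and P4htm, 12 were tested. P4htm was at 0 FPKM in every library and was not tested. Of the 12 tested 0 passed in FPKM or scaled fragments (limma), with 0 at an unadjusted p under 0.05 in either. In FPKM 2 had groups without overlap, both higher after stimulation, beside 9.03% of all genes. The median was -0.07. The demethylase genes Kdm4b, Kdm4c and Kdm5c had log2 fold changes of 0.38, -0.35 and -0.20, and the lysyl hydroxylase gene Plod2 of 0.29.

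**Figure D3:**
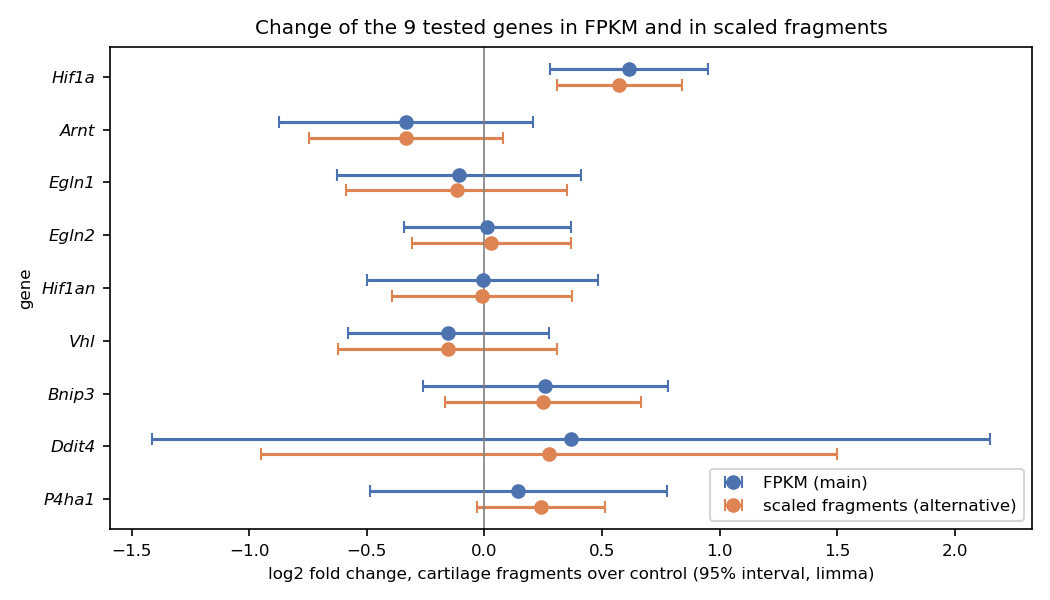
Log2 fold change of the 9 tested genes (horizontal axis, cartilage fragments over control, point and 95% interval from limma) in FPKM and in scaled fragments. The Hif1a interval lies above 0 in both units (0.28 to 0.95 in FPKM), and the intervals of the other 8 genes include 0.

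Bnip3 (chromosome 7, 138890836 to 138909506), which encodes a receptor for mitophagy, was at 25.1, 41.4 and 28.9 FPKM in controls and at 31.2, 36.1 and 45.7 FPKM after stimulation. The groups overlapped, with control replicate 2 above stimulated replicates 1 and 2. Bnip3 had a log2 fold change of 0.26 (95% interval -0.26 to 0.78, limma, adjusted p = 0.773). Leaving out 1 library at a time gave 0.10 to 0.46.

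Of 12 relatives in mitophagy and of BH3-only type 11 were tested. None passed in FPKM (limma), with 1 at an unadjusted p under 0.05, beside 9.31% of all genes. In scaled fragments 1 passed, and it was higher, beside 1.63% of all genes. This was Sqstm1, the autophagy receptor p62, at 646 ± 35.4 FPKM in controls and 757 ± 52.0 FPKM after stimulation (SD, n = 3), with a log2 fold change of 0.23 in FPKM (limma, adjusted p = 0.316) and 0.22 in scaled fragments (limma, adjusted p = 0.0134). Its call was lost without control replicate 1 or 2 and without stimulated replicate 1 or 2 (adjusted p up to 0.205 from limma). Bnip1 had a log2 fold change of 0.69 on 13 and 21 fragments, the mitophagy receptor gene Fundc1 of -0.36 and Bcl2l13 of -0.29. The median of the list was 0.02.

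Ddit4 (REDD1, chromosome 10, 59949675 to 59951770), an inhibitor of mTORC1, was at 0.878, 7.24 and 7.34 FPKM in controls and at 3.63, 7.58 and 3.91 FPKM in stimulated macrophages. These values rest on 1, 8 and 8 fragments in controls and on 4, 8 and 4 after stimulation. Control replicate 1 stood apart from the other controls. The log2 fold change was 0.37 (95% interval -1.41 to 2.15, limma, adjusted p = 0.915), although the means of 5.15 ± 3.70 and 5.04 ± 2.20 FPKM (SD, n = 3) differ the other way. Without control replicate 1 it was -0.60.

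A list of 19 genes joined stress genes that share inducers with Ddit4 and genes of mTORC1 control. Of these 18 were tested and 0 passed in FPKM (limma), with 2 at an unadjusted p under 0.05, beside 9.31% of all genes. In scaled fragments 1 gene passed upward, beside 1.63% of all genes. It was the cell cycle inhibitor gene Cdkn1a, at 88.3, 110 and 90.0 FPKM in controls and 128, 113 and 117 FPKM after stimulation. Its log2 fold change was 0.32 in FPKM (limma, adjusted p = 0.443) and 0.45 in scaled fragments (limma, adjusted p = 0.0134). The call was lost without control replicate 2 and without stimulated replicate 1 (adjusted p up to 0.129 from limma). Ddit3, which encodes the stress factor CHOP, was lower in all 3 stimulated libraries (log2 fold change -0.43, limma, adjusted p = 0.334). Fkbp5, Sesn3 and Chac1 had log2 fold changes of 2.15, 0.87 and -1.30 on at most 18 fragments per group. Each had a library at 0 FPKM, so these sizes depend on the value added before log2 and are no lower bounds. The median of the list was 0.05.

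P4ha1 (chromosome 10, 59323296 to 59373304), the catalytic subunit of collagen prolyl 4-hydroxylase, was at 50.5, 27.2 and 30.1 FPKM in controls and at 33.5, 32.4 and 51.3 FPKM after stimulation. Each group held 1 high library. In control replicate 1 the reference transcript is listed at 0, and assembled transcripts 1797 and 2749 bases long, against 4043, hold the FPKM. In stimulated replicate 3 an assembled transcript 1320 bases long held 28.7 FPKM. The same number of fragments gives a higher FPKM on a shorter transcript, and the estimated fragments were 73.6, 78.8 and 85.7 in controls and 97.0, 89.9 and 82.2 after stimulation.

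The log2 fold change of P4ha1 was 0.14 in FPKM (95% interval -0.49 to 0.78, limma, adjusted p = 0.903). In scaled fragments the groups did not overlap, at 70.4 to 85.6 and 87.3 to 95.4, and the log2 fold change was 0.24 (95% interval -0.03 to 0.51, limma, adjusted p = 0.517). The reference transcript alone gave 3.01 (limma, adjusted p = 0.797). The ratio of pooled fragments was 1.18, with a counting interval of 0.989 to 1.41.

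Of 21 symbols of collagen-modifying enzymes and proteins with a collagen domain 18 were in the files and tested. In FPKM 1 passed upward, beside 0.317% of all genes. This was Marco, a scavenger receptor with a collagen domain, which rose from 25.8 ± 7.08 to 391 ± 35.8 FPKM (SD, n = 3, log2 fold change 3.95, limma, adjusted p = 0.000184). In scaled fragments 2 of the 18 passed upward and 2 downward, beside 1.63% and 0.962% of all genes. Marco and C1qa rose, C1qa being a subunit of complement C1q with a log2 fold change of 0.65 in FPKM, and Col1a1 and Col1a2, the chains of type I collagen, fell, with log2 fold changes of -0.72 and -0.41 in FPKM. Both collagen genes are also on the fibroblast marker list, whose sum was lower after stimulation. The call for C1qa was lost without control replicate 2 and without stimulated replicate 1 or 2 (adjusted p up to 0.152 from limma), and that for Col1a2 without control replicate 3 (adjusted p = 0.0520 from limma). None of these 4 is a hydroxylase. Col3a1 had a log2 fold change of -0.70, and the median of the list was 0.12.

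Glycolytic genes known as HIF-1 targets lay mostly higher after stimulation. All 20 were tested, and 17 had a positive log2 fold change, with a median of 0.26 beside 0.003 over all tested genes. In FPKM 0 passed (limma), with 11 at an unadjusted p under 0.05, beside 9.31% of all genes. Without overlap 10 were higher and 2 lower, beside 9.03% and 6.88% of all genes. In scaled fragments 5 passed, all higher (Pfkl, Aldoa, Tpi1, Gapdh and Ldha), beside 1.63% of all genes. Of the 20 the study lists Pfkl, Tpi1, Gapdh, Ldha, Aldoc, Gpi1 and Pgk1 as raised in these same libraries. Their direction here, also within the counts above, is not independent evidence. Pfkl, the liver-type phosphofructokinase, was at 34.7 ± 4.52 FPKM in controls and 58.6 ± 3.44 FPKM after stimulation (SD, n = 3), a log2 fold change of 0.76 (limma, adjusted p = 0.0952 in FPKM and 5.02e-05 in scaled fragments). Ldha, lactate dehydrogenase A, had a log2 fold change of 0.31, Tpi1 of 0.38, Gapdh of 0.37 and Aldoa of 0.21. In scaled fragments the call for Tpi1 was lost without control replicate 1 or 2 and without stimulated replicate 1 or 2 (adjusted p up to 0.198 from limma), and that for Ldha without control replicate 1 and without stimulated replicate 2 (adjusted p up to 0.0826 from limma). Gapdh and some others have near-identical pseudogene copies, which could share their reads. Aldoc had a log2 fold change of 0.97 (limma, adjusted p = 0.418), whereas Pfkp (-0.49), Pkm (-0.11) and the glucose transporter gene Slc2a3 (-0.21) were lower without passing. Pfkp and Pkm were the genes lower without overlap, and Slc2a3 overlapped between the groups.

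HIF targets outside glycolysis gave a median of 0.01. Of 28 genes 21 were tested, 11 of them with a positive log2 fold change, and 0 passed in FPKM (limma). In FPKM 5 had an unadjusted p under 0.05, beside 9.31% of all genes. Without overlap 2 were higher and 3 lower, beside 9.03% and 6.88% of all genes. In scaled fragments 1 passed, and it fell, beside 0.962% of all genes. This was Tfrc, the transferrin receptor, at 174 ± 15.4 FPKM in controls and 126 ± 1.41 FPKM after stimulation (SD, n = 3), with a log2 fold change of -0.46 (limma, adjusted p = 0.117 in FPKM and 8.73e-06 in scaled fragments). Vegfa, the vascular growth factor gene, had a log2 fold change of 0.38 (limma, adjusted p = 0.659) and the cytokine gene Mif of 0.41 (limma, adjusted p = 0.395). Fam162a had -0.74 on 16 and 11 fragments, and this rested on stimulated replicate 3, since it was -0.0011 without that library.

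**Figure D4:**
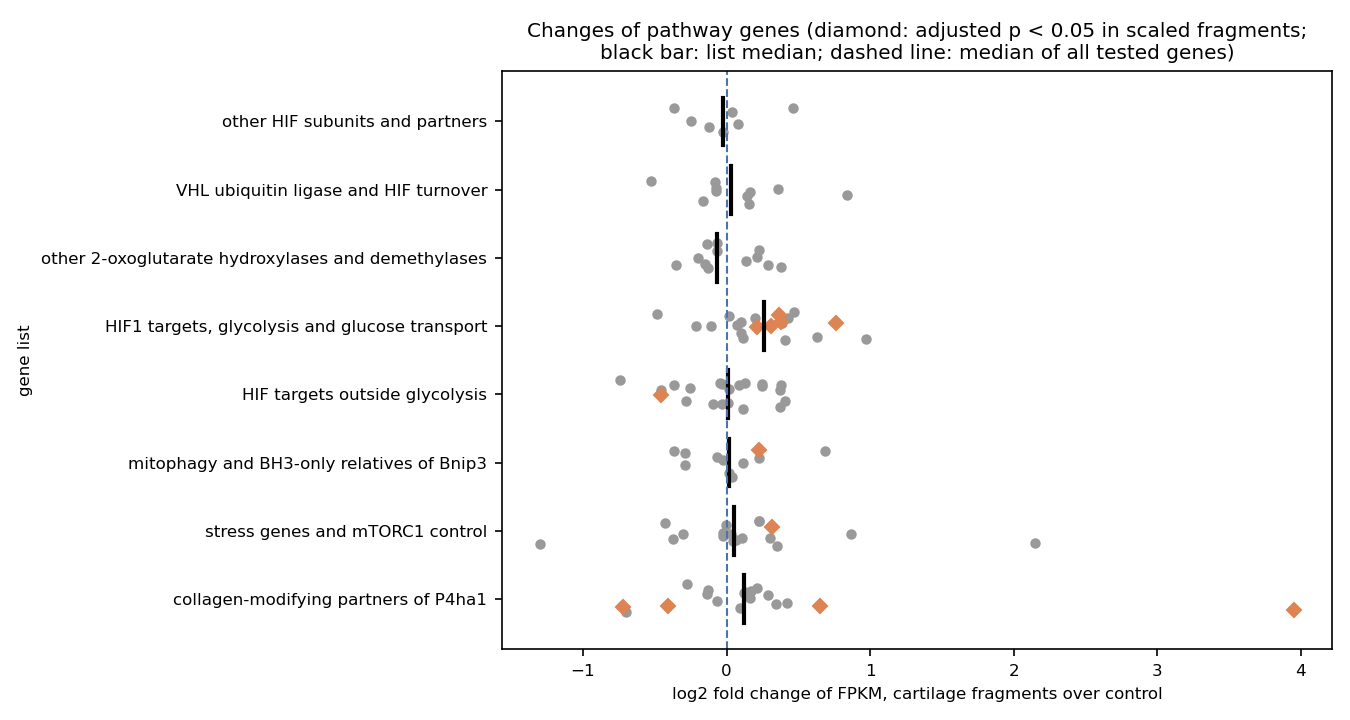
Log2 fold change in FPKM (horizontal axis) of each tested gene of the 8 pathway lists (vertical axis), with a black bar for the list median, a dashed line for the median of all tested genes and diamonds for genes past an adjusted p of 0.05 in scaled fragments. The glycolysis list lies to the right with a median of 0.26, and Marco is the isolated point at 3.95.

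The order of the members by mean FPKM, which is per length, was the same in both groups: Egln2, P4ha1, Bnip3, Hif1a, Vhl, Arnt, Egln1, Hif1an, Ddit4 and Egln3. In controls Hif1a (20.1 to 23.4 FPKM) lay below every Bnip3 value (25.1 to 41.4 FPKM). In stimulated macrophages Hif1a and Bnip3 overlapped. Neighbours from Egln2 to Bnip3, and from Vhl through Arnt and Egln1 to Hif1an, overlapped in both groups. Hif1a and Vhl did not overlap in either group. Ddit4 and Egln3 were lowest, at 8 fragments per library or fewer and at 1 fragment each in control replicate 1, so their order there was not resolved beyond counting error.

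Among 3421 other genes that averaged 20 FPKM or more, the 5 whose log2 values over the 6 libraries were most like those of Hif1a were Pid1, Bax, Itgb2, Pfkl and Plek. Pearson's r was between 0.984 and 0.998 over 6 libraries that fall into the same 2 groups, and it is given as a description. Pid1 was at 77.6, 73.3 and 92.5 FPKM in controls and at 136, 134 and 130 FPKM after stimulation, and it passed the threshold in FPKM (log2 fold change 0.72, limma, adjusted p = 0.0461). With 1 library left out Pid1 passed only without control replicate 3, and its adjusted p from limma reached 0.222.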

How the data were processed

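RNA-seq of 3 control and 3 stimulated BMM cultures was analysed, grouped by the treatment in the labels. The authors mapped paired 100-base reads with TopHat (Bowtie) to mm10, followed by Cufflinks per library. The deposited FPKM and coverage are Cufflinks values for 34535 reference transcripts plus 1453 to 1654 that were assembled anew in a library. The coverage is a signal, the mean read depth of a transcript per the file headers. Versions, and whether strand was used in counting, are not given in the sources used here. Counts per gene were not used here, and no count model was run. The deposited length column gave transcript lengths.

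Assembled transcripts were given the symbol of the reference transcripts under the same Cufflinks gene. The plan named both the lines that carry a symbol and all transcripts of a symbol. Their sum over all transcripts was settled on after lines at 0 had been seen for Hif1a, Egln2 and P4ha1. Fragments were coverage times effective length divided by read length, with 0.5 added before log2. Fragment length was set per library to give the largest share of whole numbers, within 0.1, in single-transcript genes of at most 8 fragments. That share was 94.3% to 95.1%, and since it was maximised it is no independent check of the fragments. No transcript of another gene overlapped a member's locus.

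Genes were tested with limma 3.58.1 in R 4.3.3 (trend, robust, two-sided, threshold 0.05). Intervals on fragments are exact at 95%, on fragments rounded to whole numbers. The fit was tried on simulated fragments per gene without assembled transcripts, so that trial does not cover their effect on FPKM. Tables, intervals and figures were made with scipy 1.17.1, matplotlib 3.10.9, numpy 2.4.6 and pandas 2.3.3 under Python 3.11.15. Start positions are those of the files with 1 added. Promoter windows matched all 10 members by symbol. The window of Vhl begins at another start than the files give, and for Egln2 the one at the start of the files was used.

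The members and lists were chosen with earlier results of these data known. Named are all members, from each list the genes past the threshold in either unit and the 2 largest and 2 smallest log2 fold changes, and the 5 genes most like Hif1a with a mean of at least 20 FPKM. Pkm, Gpi1, Pgk1 and P4htm were named in addition. Alternatives were 20 planned ones (pseudocount 1 or 0.01, no filter or 5 FPKM, scalings, moderation, weights, replicate block, unit, transcript choices, each library left out) and 8 added after seeing the data, all in scaled fragments. Scaled fragments had been planned, but their pseudocount and fragment length were set after the files were seen.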

Additional observations from a re-analysis of the deposited data

How the results depend on the processing

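Hif1a stayed higher in every alternative run, at 0.58 to 0.68 on the log2 scale over the 18 in FPKM with all transcripts summed (adjusted p 0.143 to 0.404 from limma, none past the threshold). It passed in scaled fragments (0.57), also with the replicate block (0.57, adjusted p = 0.0149 from limma) and with size factors (0.57), and with 1 library left out it was 0.58 to 0.68 in FPKM and 0.53 to 0.64 in scaled fragments, past the threshold in 4 of those 6. Members past the threshold were 0 in FPKM and 1 in each of these 3 fits, and 0 to 1 with 1 library left out of scaled fragments. The sign of Egln2 turned with equal totals (-0.024) and quantile normalization (-0.0048), and that of Arntl with reference transcripts only (-1.50). Egln3 entered the fit without a filter, with a fitted value of 2.33 that depends on the pseudocount and is no bound. With 1 library left out, in either unit, Egln1 ranged from -0.26 to 0.053, Egln2 from -0.10 to 0.12, Hif1an from -0.14 to 0.093, Ddit4 from -0.60 to 0.86 and P4ha1 from -0.067 to 0.42. The cause was not tested.

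Of all genes 41 passed in FPKM (33 higher, 8 lower). There were 19 (14 and 5) without trend and robust moderation, 18 (17 and 1) with the replicate block, 19 (15 and 4) with reference transcripts only, and 5 lower with quantile normalization. Scaled fragments gave 270 (170 and 100), 245 (155 and 90) with the block and 274 (170 and 104) with size factors. Leaving out 1 library gave 12 to 30 in FPKM (12 to 26 higher, 0 to 6 lower), the fewest without stimulated replicate 1, and 157 to 232 in scaled fragments (99 to 151 higher, 52 to 85 lower). Deviations from the group means in FPKM correlated at -0.17, -0.03 and -0.16 between same-numbered libraries. Over all combinations of a control and a stimulated library they lay between -0.17 and 0.26. With 3 libraries per group, whose deviations sum to 0, these values cannot show whether libraries were paired.

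List calls rose in scaled fragments to 5 for glycolysis (4 with the block, 5 with size factors, 3 to 6 with 1 library left out) and to 4 for the collagen list (4, 4 and 3 to 4). They rose from 0 to 1 for the other targets (1, 1 and 1), and likewise for mitophagy and for stress genes (1, 1 and 0 to 1 each). With 1 library left out the sign also turned in Arntl (-0.074 to 0.79), Wsb1 (-0.27 to 0.027), Slc2a3 (-0.59 to 0.093), Chac1 (-2.18 to 0.0080) and Sesn3 (-0.60 to 1.62). The depth estimated from coverage limits Egln3 and Ddit4 most, at no more than 8 fragments per library, and it is below the reads stated in the methods.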
